A study of Mus musculus with 24 samples.

Results

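The 32 genes described here carry out glycolysis or belong to the response to low oxygen. They were matched by symbol to the rows of a count table of 24421 genes. All 32 were in the table, and all 32 passed the filter on low counts in CD8, in CD4 and over both cell types. By role they were the glucose transporters Slc2a1 and Slc2a3, the upper glycolytic enzymes Hk1, Hk2, Gpi1, Pfkl, Pfkm, Pfkp, Aldoa, Aldoc and Tpi1, the lower glycolytic enzymes Gapdh, Pgk1, Pgam1, Eno1 and Pkm, and the lactate genes Ldha, Slc16a1 and Slc16a3. Pdk1, Pfkfb3 and Pfkfb4 act as switches of carbon flow, Hif1a, Egln1 and Egln3 belong to the oxygen sensor, and Vegfa, Bnip3, P4ha1, Ankrd37, Ddit4, Mxi1 and Higd1a are known targets of hypoxia.

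Glycolysis splits glucose into pyruvate in the cytosol, and lactate dehydrogenase turns pyruvate into lactate, which monocarboxylate transporters export. Activated T cells are known to raise glycolysis even where oxygen is present. With oxygen, prolyl hydroxylases of the EGLN family mark the HIF-1alpha protein for destruction, and without it the protein accumulates and activates genes through a short DNA element, so that its mRNA level is no measure of its activity.

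RNA was sequenced from CD8 and CD4 T cells sorted from the bone marrow of female CByB6F1 mice, 2 to 5 months old, all with immune bone marrow failure, a model in which T cells attack the marrow. Mice were given no drug (untreated), the calcineurin inhibitor cyclosporine (CSA), a low dose of ruxolitinib (RUX), which inhibits JAK kinases, or both drugs together (RUX+CSA). Each of the 8 groups of cell type and treatment had 3 pools of 2 to 3 mice, and libraries are named by group and pool number. No group without marrow failure is analysed here, and p-values measure the spread between pools.

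Libraries held 16912085 to 34550183 counted read pairs, so that 3 read pairs were worth 0.0868 to 0.177 CPM (read pairs of a gene scaled to a common library size). Levels of single genes in CPM were scaled by trimmed mean of M values (TMM). Marker sums are CPM of library totals, without TMM. The summed level of Cd8a and Cd8b1 was 2094 to 2663 CPM in CD8 and 10.1 to 28.96 CPM in CD4 libraries, and that of Cd4 and Cd40lg 1306 to 1909 CPM in CD4 and 0.713 to 6.98 CPM in CD8 libraries. Markers of other cells were present. The sum of 10 neutrophil markers was 495, 11.2 and 1447 CPM in the untreated CD8 pools and 4024 to 5265 CPM in the RUX+CSA CD8 pools. In CD4 pools it was 1543, 4.41 and 8826 CPM untreated and 8113 to 9906 CPM under RUX+CSA. In CD8 untreated 2, 5 of the 10 were at 0, and in CD4 untreated 14, 3 of the 10 were. CD8 CSA 6 and CD8 RUX 7 stood apart from their groups in 6 NK cell markers, at 783 CPM against 1854 and 2167 CPM in the other CSA pools and at 2197 CPM against 779 and 817 CPM in the other RUX pools. The markers were Ncr1, Klrb1c, Klrc1, Klrk1, Eomes and Tyrobp, and whether NK cells or the T cells themselves held them was not tested. By these markers CD8 CSA 6 and CD8 RUX 7 each lay with the other drug's pools, so their labels may be exchanged. That was not tested, groups were kept as labelled, and every CD8 value given for CSA or RUX carries this doubt. Results that rest on this pair are also given without it. The labels give each library its own pool number and do not say whether CD8 and CD4 libraries came from the same mice. Some marker sums ran in the same order of pools in both cell types, those of the neutrophil markers in untreated pools (above) and of 6 B cell markers under RUX+CSA, at 42.1, 19.3 and 6.86 CPM in CD8 and 70.4, 47.2 and 12.2 CPM in CD4. So did the NK cell markers under RUX+CSA, at 1837, 1785 and 1572 CPM in CD8 and 671, 601 and 531 CPM in CD4. The 9 erythroid markers did too, at 144, 126 and 298 CPM and at 192, 161 and 483 CPM. Others did not, such as 8 macrophage markers in untreated pools, at 84.8, 63.4 and 197 CPM in CD8 and 309, 517 and 1381 CPM in CD4. Nor did the NK cell markers with CSA, where the label of CD8 CSA 6 is in doubt. Tests between the cell types treat libraries as separate, and their p-values do not allow for shared mice. In sorted pools, fewer cells of a type and less RNA per cell cannot be told apart.

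The hypoxia-inducible factor is known to bind DNA at the core letters ACGTG or GCGTG. Of the 32 genes, 31 (all but Slc2a3) were matched to start-site windows of 300 bases, 47 windows in all, from RefSeq for GRCm38.p6. Either core, searched on both strands, was found in 38 of the 47 windows, 80.9%, against 43.8% of 32851 windows of all genes and 60.4% of 12929 windows of the genes tested here. ACGTG alone was found in 59.6%, 19.6% and 25.01% of the same windows. ACGTG overlaps the E-box CACGTG, which reads alike on both strands and then counts as 2 matches. The median number of CG steps was 21 in windows of the 32 genes, 7 in all windows and 20 in windows of tested genes. A match is a description of the letters and not a binding site. Shown here are the 250 bases before the start of Pfkfb4, Gpi1 and Slc2a1, the genes past the threshold in CD8 cells under RUX+CSA, and of Hif1a and Pfkp, the genes with the smallest p between the cell types. Each is read 5′ to 3′ on the strand of its gene, with both cores and their reverse complements in capitals.
Pfkfb4, chr9:108991652-108991901, plus strand: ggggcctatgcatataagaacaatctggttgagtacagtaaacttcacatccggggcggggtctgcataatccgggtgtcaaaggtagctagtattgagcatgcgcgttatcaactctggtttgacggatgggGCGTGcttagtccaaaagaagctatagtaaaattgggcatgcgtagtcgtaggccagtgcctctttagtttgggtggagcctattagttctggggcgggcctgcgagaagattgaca
Gpi1, chr7:34230337-34230586, minus strand: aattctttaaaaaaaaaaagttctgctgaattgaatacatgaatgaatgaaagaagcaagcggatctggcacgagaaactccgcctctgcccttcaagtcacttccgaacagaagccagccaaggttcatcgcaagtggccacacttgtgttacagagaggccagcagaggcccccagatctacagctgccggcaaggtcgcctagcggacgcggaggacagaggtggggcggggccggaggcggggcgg
Slc2a1, chr4:119108495-119108744, plus strand: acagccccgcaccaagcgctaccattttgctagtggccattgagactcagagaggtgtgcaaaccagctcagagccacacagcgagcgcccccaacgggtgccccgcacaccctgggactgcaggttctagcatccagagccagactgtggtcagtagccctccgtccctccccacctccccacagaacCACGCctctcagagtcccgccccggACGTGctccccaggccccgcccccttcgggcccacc
Hif1a, chr12:73907617-73907866, plus strand: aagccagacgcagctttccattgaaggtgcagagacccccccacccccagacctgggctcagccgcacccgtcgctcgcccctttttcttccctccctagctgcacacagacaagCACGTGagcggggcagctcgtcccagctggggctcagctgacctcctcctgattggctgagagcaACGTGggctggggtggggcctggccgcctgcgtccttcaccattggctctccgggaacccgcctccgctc
Pfkp, chr13:6648772-6649021, minus strand: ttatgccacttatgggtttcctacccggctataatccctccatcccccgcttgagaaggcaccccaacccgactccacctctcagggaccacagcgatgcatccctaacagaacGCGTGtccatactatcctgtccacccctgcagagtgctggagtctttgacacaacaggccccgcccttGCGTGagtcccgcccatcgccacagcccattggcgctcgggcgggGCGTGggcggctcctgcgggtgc
The stretch before Pfkfb4 held 1 match, before Gpi1 0, before Slc2a1 2, before Hif1a 3 and before Pfkp 3.

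Together the 32 genes took 0.627% to 0.894% of the read pairs of a library. Per kb of exon, the highest levels in both cell types were those of Ldha, the muscle-type subunit of lactate dehydrogenase, Gapdh, which oxidises glyceraldehyde phosphate, and Pkm, the pyruvate kinase of most tissues. The level of Ldha was 720 ± 109 CPM per kb in CD8 and 663 ± 65.6 CPM per kb in CD4 libraries (mean ± SD, n = 12 each). Gapdh stood at 638 ± 71.6 and 560 ± 55.0 CPM per kb, and Pkm at 521 ± 60.1 and 549 ± 65.1 CPM per kb. The order of the 3 genes was the same in both cell types, and neighbours in it overlapped within 1 SD. Aldoa, the main aldolase of these libraries, followed at 291 ± 36.3 CPM per kb in CD8 and 305 ± 34.3 CPM per kb in CD4. Tpi1, the triose phosphate isomerase, came next in CD8 at 143 ± 29.5 CPM per kb, next to Hif1a, the oxygen-regulated subunit of the factor, at 134 ± 14.4 CPM per kb. In CD4 the order was turned, with Hif1a at 235 ± 20.2 and Tpi1 at 141 ± 26.6 CPM per kb.

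The lowest level was that of Vegfa, a vascular growth factor, at 0.320 ± 0.172 CPM per kb in CD8 and 0.765 ± 0.576 CPM per kb in CD4. Vegfa had no read pair in CD8 untreated 2 and CD4 untreated 14, the libraries with the lowest neutrophil marker sums. Whether its level follows these sums was not tested. Egln3, an inducible prolyl hydroxylase, stood at 0.743 ± 0.216 and 1.72 ± 0.813 CPM per kb. The row of Eno1, the ubiquitous enolase, cannot be read as the level of that enzyme, because 92.9% of its exon bases also lie in the gene model Eno1b and read pairs shared by several genes were not counted. It held 0.766 to 2.32 CPM. The Eno1b row, which may hold part of the reads of the enzyme, stood at 7.46, 6.43 and 9.05 CPM in untreated and at 11.5, 13.0 and 14.1 CPM in RUX+CSA pools of CD8 cells, without overlap. Its log2 difference there was 0.74 (SE 0.16, adjusted p = 0.0139 by edgeR), and between CD8 and CD4 cells it was -0.68 (SE 0.11, adjusted p = 3.25e-05). Of 7 listed copies of glycolytic genes with a row, 3 were tested, and Eno1b was the 1 that passed in each of these comparisons. The overlapped share of exon bases was 6.59% for Pfkp, 5.42% for Ankrd37 and 1.56% for Tpi1. Gapdh, Ldha, Aldoa, Tpi1, Pgk1, Pgam1 and Pkm have near-identical processed copies in the mouse genome, so their counts are uncertain.

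**Figure D1:**
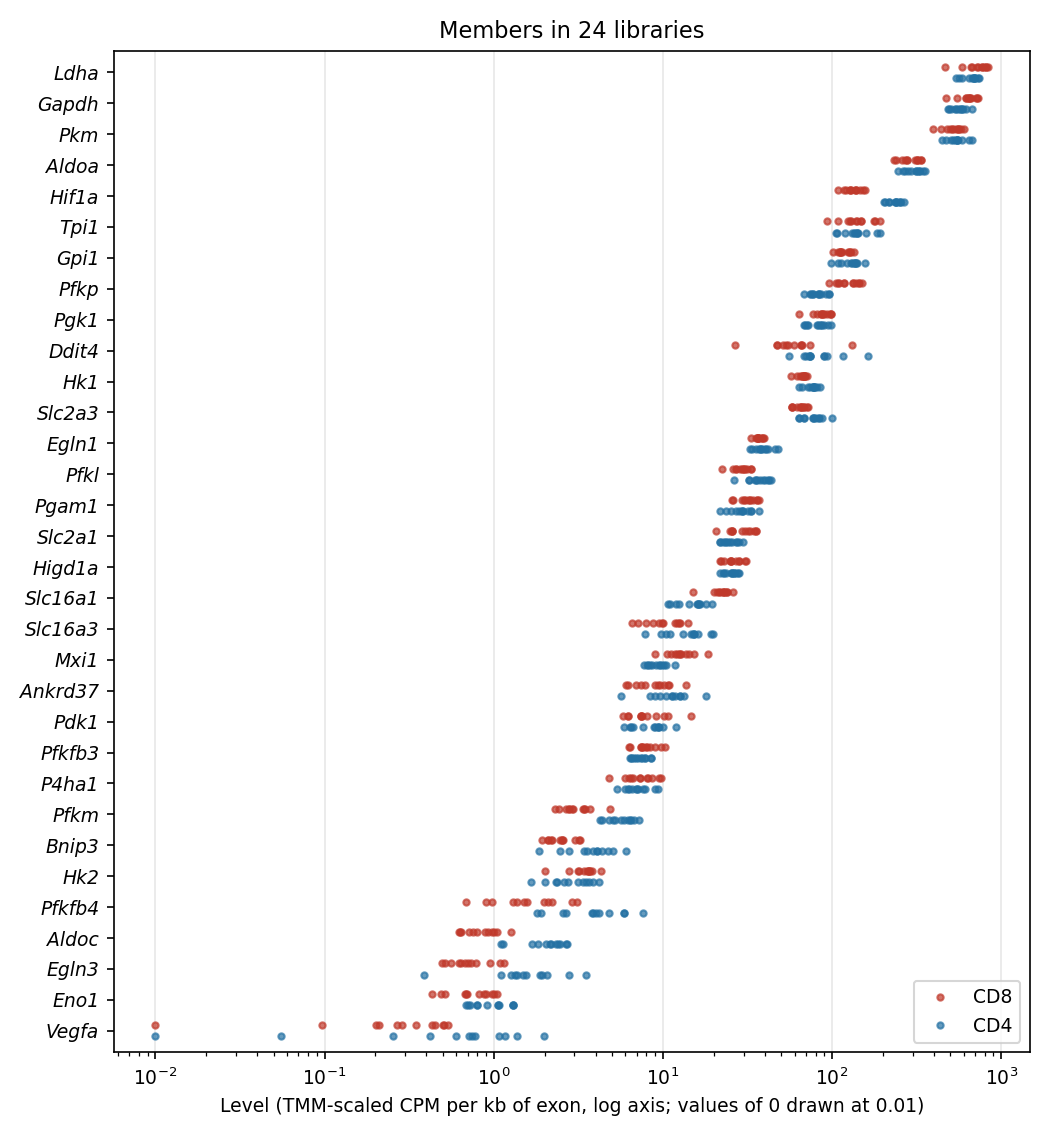
Level of each gene in the 24 libraries, in TMM-scaled CPM per kb of exon on a log axis, with the cell types in different colours and each point a pool. Ldha, Gapdh and Pkm lead in both cell types, Hif1a and Pfkfb4 lie higher in CD4 libraries and Pfkp in CD8 libraries, and the 2 values of 0 (Vegfa) are drawn at 0.01.

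CD8 and CD4 cells differed in the levels of single genes, with Hif1a, Pfkm, Aldoc and Pfkfb4 lower and Pfkp, Slc16a1 and Mxi1 higher in CD8. With the 4 treatments weighted equally, 17 of the 32 genes passed an adjusted p of 0.05 (edgeR's quasi-likelihood test), 5 higher and 12 lower in CD8. Of all 13476 genes tested, 53.8% passed, 27.4% higher and 26.4% lower, so the share of the 32, 53.1%, was that of the background. The median log2 difference was -0.08 over the 32 genes and 0.01 over all genes. Without CD8 CSA 6 and CD8 RUX 7, 5 of the 32 were higher and 13 lower, beside 7292 of all 13769 genes called.

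Hif1a (chr12:73907867-73947530, mm10) had the smallest p. Its level was 516, 636 and 745 CPM in CD8 libraries (lowest, median and highest of 12) and 960, 1137 and 1266 CPM in CD4 libraries. Every CD4 library was above every CD8 library. The log2 difference was -0.82 (SE 0.061, adjusted p = 5.53e-10 by edgeR), or 0.568 of the CD4 level. Taken within treatments it was -0.76 for untreated pools, -0.74 with CSA, -0.89 with RUX and -0.87 with RUX+CSA, past the threshold in each. In the libraries that nearly lacked neutrophil markers, Hif1a stood at 557 CPM (CD8 untreated 2) and 1033 CPM (CD4 untreated 14). The macrophage marker sum was 63.4 CPM in the former and 517 CPM in the latter. The part of other cells in the Hif1a difference was not tested.

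The phosphofructokinases, which catalyse the committed step of glycolysis, differed in opposite directions. Pfkp, the platelet-type subunit (chr13:6579874-6648771), stood at 399, 523 and 633 CPM in CD8 and at 287, 348 and 401 CPM in CD4 libraries (lowest, median and highest). The ranges met only at CD8 untreated 2, and the log2 difference was 0.59 (SE 0.066, adjusted p = 2.35e-07 by edgeR). Pfkm, the muscle-type subunit, stood at 7.07, 8.91 and 14.9 CPM in CD8 and at 13.0, 17.6 and 21.9 CPM in CD4, a log2 difference of -0.86 (SE 0.11, adjusted p = 8.36e-07). Its ranges overlapped only through CD8 untreated 3. Pfkl, the liver-type subunit, was lower in CD8 by a log2 of -0.34 (SE 0.073, adjusted p = 0.00046). Aldoc, the brain-type aldolase, stood at 1.78, 2.42 and 3.63 CPM in CD8 and at 3.19, 6.19 and 7.79 CPM in CD4, a difference of -1.27 (SE 0.16, adjusted p = 1.79e-06), while Aldoa differed by -0.07 (SE 0.065).

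Transporters differed in opposite directions too. Slc16a1, the lactate transporter MCT1, stood at 66.7, 100.3 and 115 CPM in CD8 and at 47.4, 71.1 and 86.0 CPM in CD4 libraries. The ranges overlapped, and the log2 difference was 0.57 (SE 0.086, adjusted p = 1.15e-05 by edgeR). Slc16a3, the lactate exporter MCT4, differed by -0.45 (SE 0.15). Of the glucose transporters, Slc2a1 (GLUT1) was higher in CD8 by 0.22 (SE 0.066) and Slc2a3 (GLUT3) lower, at -0.25 (SE 0.057, adjusted p = 0.000722).

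Of the switches, Pfkfb4, which sets the level of an activator of phosphofructokinase, stood at 2.30, 5.17 and 10.4 CPM in CD8 and at 6.04, 13.2 and 25.8 CPM in CD4 libraries. The ranges overlapped, and the log2 difference was -1.28 (SE 0.19, adjusted p = 7.96e-06 by edgeR). Pfkfb3, its paralog, gave 0.13 (SE 0.073), and Pdk1, which inhibits pyruvate dehydrogenase, gave 0.0065 with an interval of 2 SE from -0.24 to 0.25. Egln3 was lower in CD8 by -1.18 (SE 0.24, adjusted p = 0.000342), and Egln1, the main prolyl hydroxylase of HIF, gave -0.08 (SE 0.052).

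Hypoxia targets went both ways. Mxi1, an antagonist of MYC, stood at 50.3, 70.4 and 104 CPM in CD8 and at 43.2, 52.0 and 66.1 CPM in CD4, a log2 difference of 0.47 (SE 0.088, adjusted p = 0.000119 by edgeR). Bnip3, a mitophagy receptor, was lower in CD8 at -0.61 (SE 0.14), as was Ankrd37, an ankyrin repeat gene, at -0.33 (SE 0.14). Vegfa at -1.18 (SE 0.51, adjusted p = 0.0567) and Ddit4, an inhibitor of mTORC1, at -0.48 (SE 0.21, adjusted p = 0.0613) did not pass. P4ha1, a collagen prolyl hydroxylase, gave 0.05 (SE 0.094) and Higd1a, a mitochondrial protein, 0.04 (SE 0.06).

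Among the other enzymes, Hk1, the constitutive hexokinase, was lower in CD8 at -0.19 (SE 0.043), Gpi1, the glucose phosphate isomerase, lower at -0.13 (SE 0.05) and Gapdh higher at 0.19 (SE 0.068). Hk2, the inducible hexokinase, at 0.23, Pgam1, the phosphoglycerate mutase, at 0.13, Ldha at 0.11, Pgk1, the phosphoglycerate kinase, at 0.08, Tpi1 at 0.01 and Pkm at -0.07 did not pass, nor did the Eno1 row. Beside these differences, 7 of 10 neutrophil, 7 of 8 macrophage, 2 of 4 basophil and mast cell and 1 of 3 tested platelet markers were lower in CD8 libraries. Of the macrophage markers the other 1 was higher, as was 1 of 6 B cell markers. Of 6 NK cell markers 3 were higher and 1 lower, of 6 T cell markers 1 and 3, and of 6 tested erythroid markers 0 and 0. A covariate of the mean level of neutrophil, erythroid and B cell markers was an alternative chosen after seeing the data. With it 19 of the 32 genes passed, 9 higher and 10 lower in CD8 in place of 5 and 12. Of all 13476 genes 7061 passed with it, 3666 higher and 3395 lower, in place of 3691 and 3560. Slc16a3, Gpi1 and Ankrd37 did not pass with it (adjusted p = 0.0513, 0.174 and 0.0733 by edgeR). Leaving out 1 library at a time ended the call of Ankrd37 in 12 of 24 cases, of Gapdh in 9 and of Gpi1 in 4.

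Within single treatments, 4 of the 32 genes passed in untreated pools, against 17.2% of all genes, and these were Aldoc, Hif1a and Pfkfb4, lower, and Mxi1, higher in CD8. In CSA pools 9 passed against 26.3%, in RUX pools 6 against 17.9% and in RUX+CSA pools 11 against 27.8%. Hif1a and Aldoc were lower in CD8 in all 4 treatments. Pfkp was higher and Pfkm lower with CSA, RUX and RUX+CSA, and in untreated pools they gave 0.37 (adjusted p = 0.0563 by edgeR) and -0.51 (adjusted p = 0.103). The count in CSA pools was 5 without CD8 CSA 4 or without CD4 CSA 18, and that in RUX+CSA pools was 7 without CD8 RUX+CSA 11. With 1 of the 6 libraries of a treatment left out at a time, Hif1a passed in every case in all 4 treatments, and Pfkp and Pfkm in every case with CSA, RUX and RUX+CSA. Aldoc did not pass in 5 of 6 cases in RUX pools (all but that without CD4 RUX 19, adjusted p up to 0.131) nor in 2 of 6 in CSA pools (without CD8 CSA 4 or CD4 CSA 18). In untreated pools Pfkfb4 did not pass without CD8 untreated 1, CD8 untreated 2 or CD4 untreated 15, and Mxi1 did not without CD8 untreated 3, CD4 untreated 13 or CD4 untreated 14. In RUX+CSA pools Pfkfb4, at -1.01 (adjusted p = 0.0443), passed in 0 of 6 cases. Without CD8 CSA 6 and CD8 RUX 7, 2 of the 32 genes were higher and 4 lower in untreated pools, in place of 1 and 3. In CSA pools 1 was then higher and 7 lower, in place of 1 and 8. In RUX pools 3 were then higher and 2 lower, in place of 2 and 4. Of all 13769 genes, 2751, 3178 and 2167 passed in these 3 treatments without the pair.

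**Figure D2:**
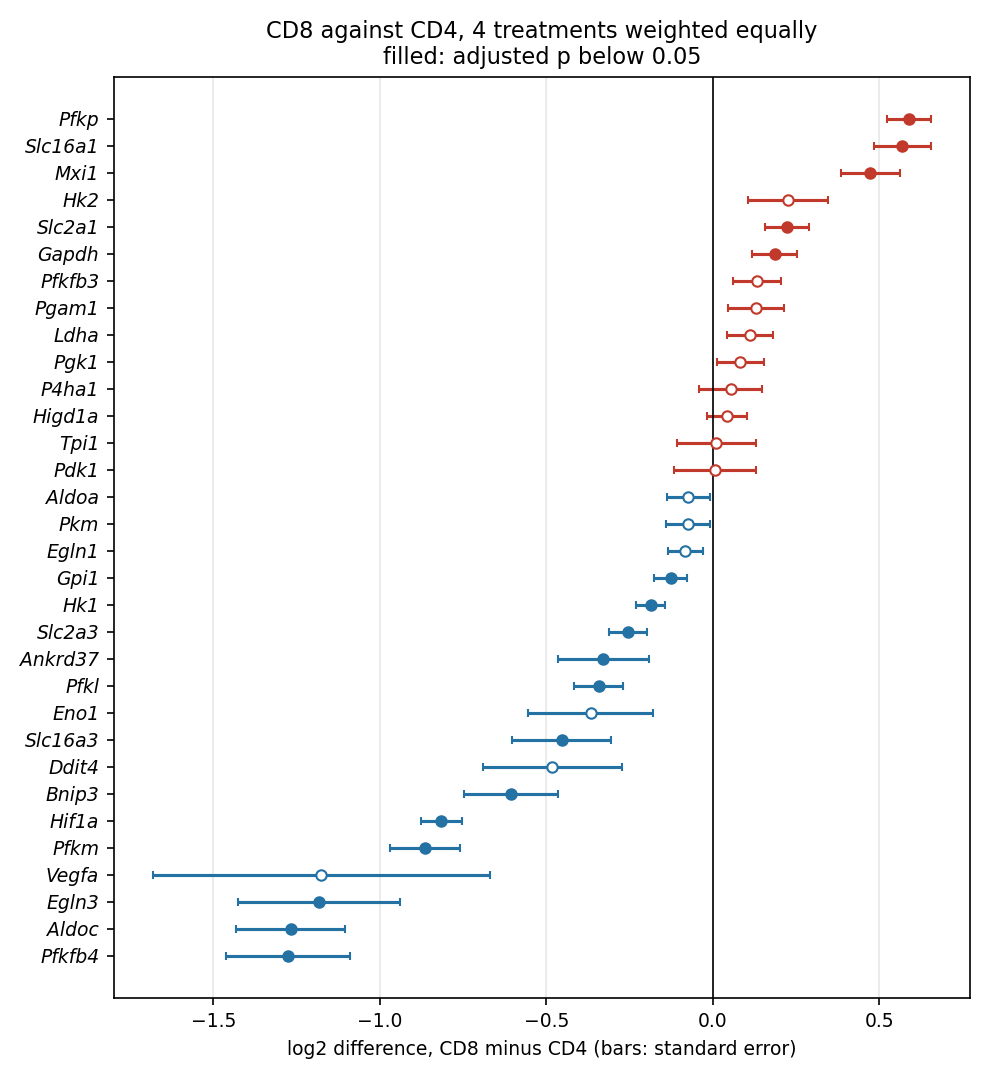
Fitted log2 difference of CD8 minus CD4 for the 32 genes, averaged over the 4 treatments, with bars of 1 standard error and filled points where the adjusted p was below 0.05. Pfkp, Slc16a1 and Mxi1 lie highest among the filled points, and Pfkfb4, Aldoc and Egln3 lowest.

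Shares within isozyme families, per kb of exon, show how much of each form a cell type carried. In each family tested, the form with the largest mean share was the same in both cell types. The shares of 21 genes in 9 families were each compared by a two-sided permutation test with 100000 resamples over 12 CD8 and 12 CD4 libraries, and 15 passed after Benjamini-Hochberg adjustment over the 21. Pfkp made up 79.3 ± 3.25% of phosphofructokinase in CD8 and 66.0 ± 3.38% in CD4 (SD, n = 12 each), and no CD8 library, at 75.0% or more, fell to the highest CD4 share of 72.7%. Pfkl made up 18.7 ± 2.74% and 29.5 ± 3.22%. Slc16a1 made up 68.5 ± 4.47% of the pair of lactate transporters in CD8 and 52.0 ± 7.22% in CD4. For these 3 the permutation p was 2e-05, the smallest the resamples can give (adjusted p = 7e-05).

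Pfkfb4 was 12.6 ± 5.31% of the PFKFB family in CD8 and 26.7 ± 7.62% in CD4 (permutation test, adjusted p = 0.00012). Slc2a1 was 31.1 ± 3.44% of the pair of glucose transporters in CD8 and 24.6 ± 3.28% in CD4 (permutation test, adjusted p = 0.00042). Ldha was nearly all of lactate dehydrogenase, 99.4 ± 0.447% in CD8 and 96.9 ± 1.38% in CD4 (permutation test, adjusted p = 7e-05). Hk1 was 89.1 ± 3.94% of hexokinase in CD8 and 84.6 ± 6.38% in CD4, which did not pass (permutation test, adjusted p = 0.0614), while Hk3, a hexokinase of myeloid cells, was 6.35 ± 3.62% and 12.1 ± 6.18% (permutation test, adjusted p = 0.0141). Neutrophil and macrophage markers were higher in CD4 libraries, and their part in these shares was not tested.

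**Figure D3:**
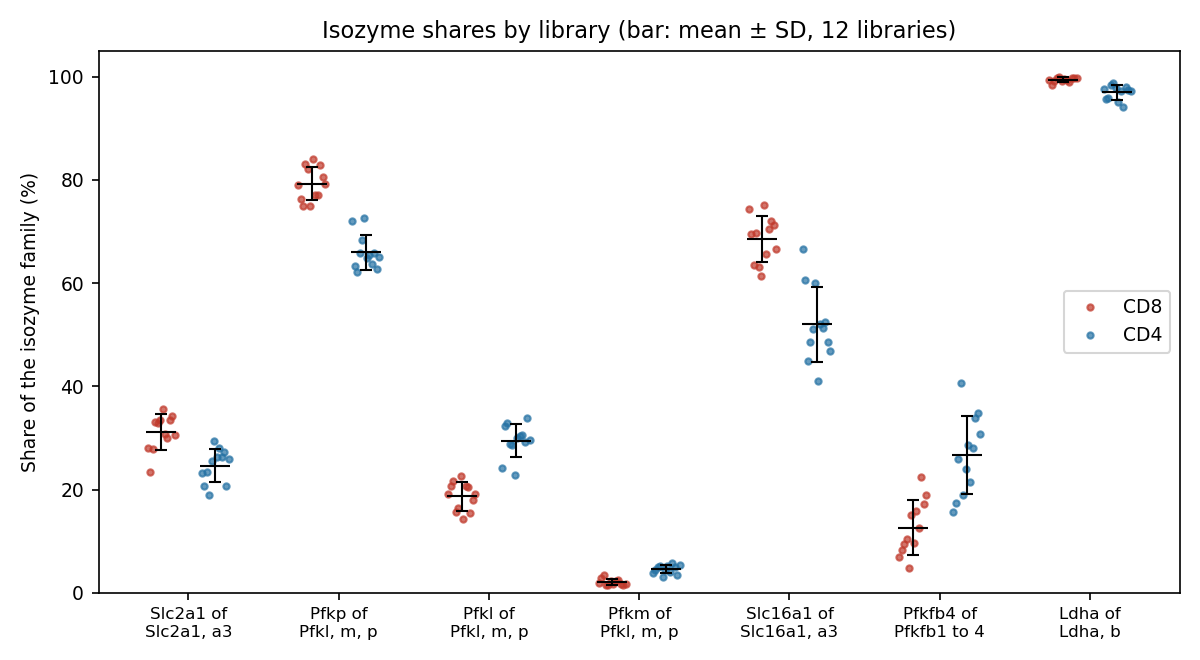
Share of a gene in its isozyme family, in percent per kb of exon, for each of the 12 CD8 and 12 CD4 libraries, with the mean ± SD. Pfkp and Slc16a1 took larger shares in CD8, Pfkl and Pfkfb4 larger shares in CD4, and Ldha was close to the whole of its family in both.

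In CD8 cells RUX+CSA went with higher Pfkfb4, Gpi1 and Slc2a1. Against untreated pools these 3 of the 32 genes passed and none was lower, against a background of 15.7% of 12684 genes, 7.94% higher and 7.73% lower, so their share was below that of all genes. Of the 32 genes 10 had an unadjusted p under 0.05, beside 4270 of all 12684 genes. Above 0 lay 22 of the 32, and the median log2 difference was 0.16 against -0.02 over all genes. With library totals in place of TMM, 18 lay above 0, the medians were 0.08 and -0.11, and 686 genes in all were higher and 1496 lower, in place of 1007 and 981.

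Pfkfb4 (chr9:108991902-109032225) stood at 3.02, 3.27 and 4.35 CPM in untreated and at 10.4, 7.45 and 9.77 CPM in RUX+CSA pools of CD8 cells. All RUX+CSA pools were above all untreated pools. The log2 difference was 1.37 (SE 0.32, adjusted p = 0.0195 by edgeR), a fold of 2.58. CSA pools stood at 4.63, 2.30 and 6.66 CPM and RUX pools at 5.27, 7.03 and 5.08 CPM, all below the RUX+CSA pools.

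Gpi1 (chr7:34201327-34230336) stood at 311, 293 and 321 CPM in untreated and at 391.5, 375 and 368 CPM in RUX+CSA pools of CD8 cells, without overlap. The log2 difference was 0.28 (SE 0.073, adjusted p = 0.0269 by edgeR), a fold of 1.22, and all CSA and RUX pools lay between the untreated maximum and the RUX+CSA minimum. Slc2a1 (chr4:119108745-119137329), the transporter through which activated T cells take up much of their glucose, stood at 65.7, 53.3 and 66.1 CPM in untreated and at 84.3, 91.7 and 81.6 CPM in RUX+CSA pools. The groups did not overlap, and the log2 difference was 0.47 (SE 0.14, adjusted p = 0.0455 by edgeR), a fold of 1.38. CSA pools stood at 79.1, 89.3 and 75.8 CPM, above all untreated pools, and RUX pools at 91.9, 65.9 and 64.0 CPM, where only RUX 7 was high.

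Lack of overlap between untreated and RUX+CSA pools was not counted over all genes, so it sets no gene apart from the background. A further set did not pass, though their untreated and RUX+CSA pools did not overlap either. These were P4ha1 at 0.55 (adjusted p = 0.0519 by edgeR), Aldoa at 0.33 (0.0577), Pfkp at 0.37 (0.0704), Ldha at 0.38 (0.087), Vegfa at 1.90 (0.0947), Ankrd37 at 0.49 (0.119), Slc16a1 at 0.28 (0.154) and Pgk1 at 0.21 (0.237), with Pfkm alone on the other side at -0.53 (0.0925). Ldha stood at 1280, 897 and 1411 CPM in untreated and at 1615, 1561 and 1534 CPM in RUX+CSA pools. Its lowest value was in CD8 untreated 2, which was the lowest of the 12 CD8 libraries for 13 of the 32 genes. Hif1a, at 651, 557 and 745 CPM untreated and 610, 611 and 620 CPM under RUX+CSA, gave -0.09 (SE 0.13), and the remaining genes lay between -0.29 and 0.44 with overlapping pools.

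The calls depended on single libraries. With 1 of the 6 libraries left out at a time, Slc2a1 passed in 0 of 6 cases (adjusted p from 0.0618 to 0.159 by edgeR), Gpi1 did not pass in 4 and Pfkfb4 did not in 3. Without CD8 untreated 1, CD8 untreated 2 or CD8 RUX+CSA 10 no gene of the 32 passed, without CD8 RUX+CSA 11 1 passed, without CD8 RUX+CSA 12 2 did, and without CD8 untreated 3 3 did, Slc2a1 not among them. Without CD8 CSA 6 and CD8 RUX 7, which are in neither group but share the estimate of spread, 9 passed, beside 3893 of all 12799 genes. DESeq2 called 8, beside 2794 of all 17840 genes. With the markers of other cells as a covariate Pfkfb4 gave 0.93 (adjusted p = 0.635 by edgeR), Gpi1 0.16 (0.683) and Slc2a1 0.20 (0.796), and 0 of 12684 genes passed, 1179 of them at an unadjusted p under 0.05. Of the marker lists, 2 of 10 neutrophil, 5 of 5 tested B cell, 4 of 4 basophil and mast cell and 3 of 6 tested erythroid genes were higher in RUX+CSA than in untreated CD8 pools. So were 2 of 5 tested NK cell and 3 of 6 T cell genes. Of 8 macrophage genes 1 was higher and 2 lower, with a median log2 of -0.60. Their sum, though, was 63.4 to 197 CPM in untreated and 594 to 754 CPM in RUX+CSA pools. Of 3 tested platelet genes 0 passed. The neutrophil and macrophage sums did not overlap, so that drug and marker level cannot be told apart.

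**Figure D4:**
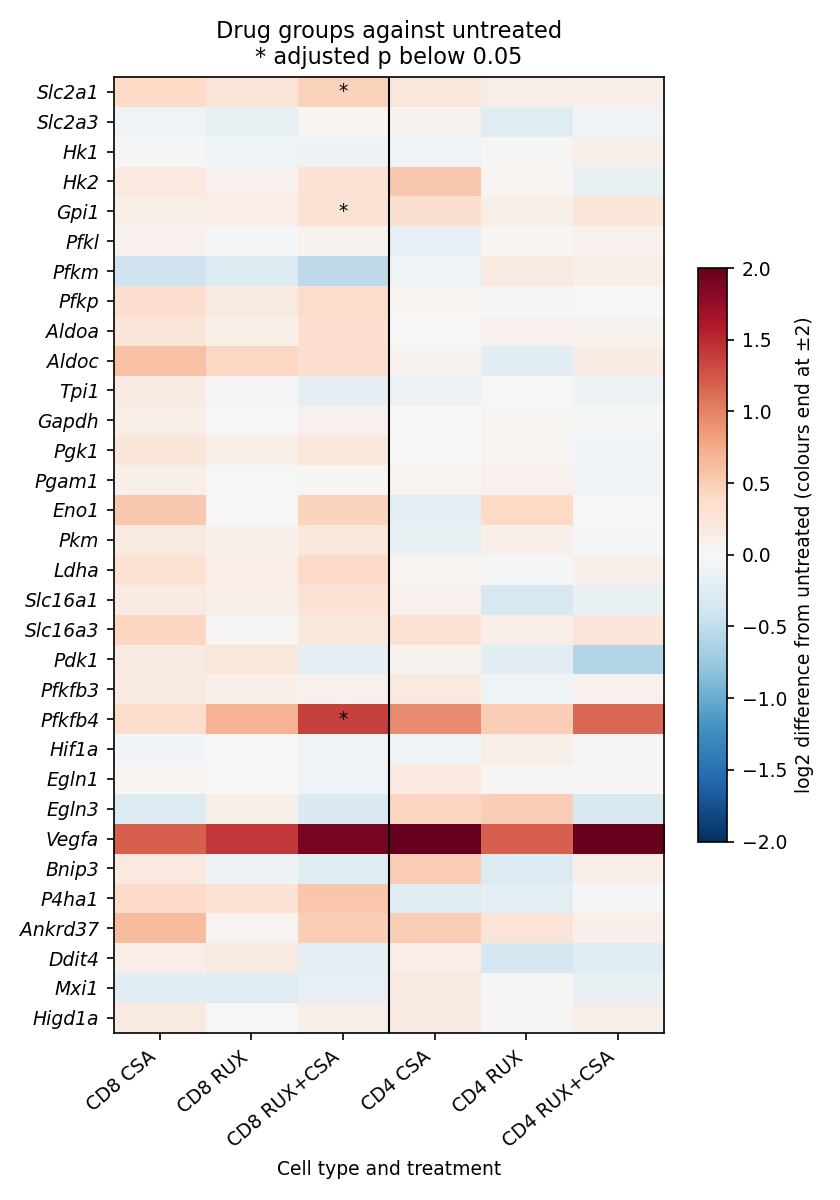
Fitted log2 difference from untreated pools for the 32 genes under each treatment in CD8 and CD4 cells, with a star where the adjusted p was below 0.05. Stars stand only at Pfkfb4, Gpi1 and Slc2a1 under RUX+CSA in CD8 cells.

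CSA alone in CD8 cells gave the smallest p for Ankrd37, Slc2a1 and Pfkp, without a call. Against untreated pools edgeR called 0 of the 32 genes (0% of all genes), and DESeq2 called 0. An unadjusted p under 0.05 was held by 5 of the 32 and 1233 of all 12684 genes. Ankrd37 stood at 5.64, 7.12 and 6.70 CPM in untreated and at 9.16, 12.4 and 8.69 CPM in CSA pools, which did not overlap (log2 0.64, SE 0.21, adjusted p = 0.441 by edgeR). Of the 32 genes 26 lay above 0, with a median of 0.18 against 0.01 over all genes. Without CD8 CSA 6 and CD8 RUX 7, 3 genes passed, Pfkp at 0.47 (adjusted p = 0.0128), Slc2a1 at 0.45 (0.0319) and Ankrd37 at 0.73 (0.0451). Of all 12799 genes, 616 passed there.

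RUX alone in CD8 cells gave no call, with 0 of 32 by edgeR (0% of all genes) and 0 by DESeq2. At an unadjusted p under 0.05 were 0 of the 32 and 744 of all 12684 genes. RUX 7 stood apart within its group. Ddit4 was 221 CPM there and 79.2 and 45.0 CPM in the other RUX pools, and Pdk1 75.6 against 38.3 and 32.5 CPM. That library was the highest of the 12 CD8 libraries for 6 of the 32 genes and the lowest for 7, among them Gapdh at 701 CPM against 1071 and 996 CPM.

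The comparisons between drug groups gave 0 of 32 genes by edgeR for RUX+CSA against CSA (0.0788% of all genes, 2 at an unadjusted p under 0.05, DESeq2 0) and for RUX+CSA against RUX (0% of all genes, 0 and 0). Of all 12684 genes, 1593 had an unadjusted p under 0.05 in the former and 2198 in the latter. Without CD8 CSA 6 and CD8 RUX 7, Slc2a1 at 0.41 (adjusted p = 0.0296) and Ankrd37 at 0.66 (0.048) passed in the latter, beside 1481 of all 12799 genes. Averaged over RUX, CSA called 0 of 32 by edgeR, against 2.36% of all genes. An unadjusted p under 0.05 was held by 9 of the 32 and 3043 of all 12684 genes. DESeq2 called Ankrd37, Aldoa, Slc2a1 and Pfkp, which edgeR put at 0.54, 0.24, 0.30 and 0.27 with adjusted p from 0.067 to 0.11. Without the pair of libraries 5 passed, Pfkp, Slc2a1, Ankrd37 and P4ha1, higher, and Pfkm, lower, while without CD8 CSA 6 alone 2 passed and without CD8 RUX 7 alone 3. Of all 12799 genes, 2802 passed without the pair.

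Averaged over CSA, RUX called 0 of 32 by edgeR, against 0.56% of all genes. An unadjusted p under 0.05 was held by 2 of the 32 and 1995 of all 12684 genes. DESeq2 called Pfkfb4, for which edgeR gave 0.86 (SE 0.23, adjusted p = 0.109), and 1 gene passed without CD8 CSA 6. The interaction of RUX and CSA called 0 of 32 by edgeR (0% of all genes, DESeq2 0). At an unadjusted p under 0.05 were 0 of the 32 and 368 of all 12684 genes.

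In CD4 cells Pdk1 was lower and Pfkfb4 higher under RUX+CSA by value, and neither passed. Against untreated pools edgeR called 0 of 32 genes, against 1.77% of 13175, and DESeq2 called 2. An unadjusted p under 0.05 was held by 2 of the 32 and 2233 of all 13175 genes. Pdk1 stood at 48.8, 48.3 and 49.2 CPM in untreated, at 39.7, 51.9 and 61.7 CPM in CSA, at 46.3, 45.7 and 34.5 CPM in RUX and at 33.7, 30.5 and 33.2 CPM in RUX+CSA pools. The RUX+CSA pools lay below all others. The log2 difference from untreated was -0.59 (SE 0.16, adjusted p = 0.069 by edgeR, 0.0144 by DESeq2), and from CSA -0.65 (SE 0.16, adjusted p = 0.121 by edgeR, 0.0126 by DESeq2). In CD8 cells Pdk1 gave -0.19 (SE 0.31) against untreated.

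Pfkfb4 stood at 6.04, 6.37 and 12.9 CPM in untreated and at 19.7, 19.8 and 16.1 CPM in RUX+CSA pools of CD4 cells, without overlap. The log2 difference was 1.14 (SE 0.37, adjusted p = 0.134 by edgeR, 0.0331 by DESeq2), beside 1.37 in CD8 cells. CSA pools spread from 9.04 to 25.8 CPM, the highest in CD4 CSA 16, which also had the highest neutrophil marker sum, 16580 CPM. Vegfa was lowest in CD4 untreated 14, at 0 CPM, and highest in CD4 CSA 16, at 8.32 CPM. A relation of either gene to the neutrophil sum over the libraries was not tested. With the markers of other cells as a covariate, Pfkfb4 gave 0.31 (adjusted p = 0.872 by edgeR) and Pdk1 -0.55 (0.372). Without CD4 untreated 15, 2 of the 32 genes passed.

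The other CD4 comparisons gave no call by edgeR. CSA against untreated called 0 of 32 (1.48% of all genes, 2 at an unadjusted p under 0.05, DESeq2 0), with Gpi1 at 0.33 (SE 0.12, adjusted p = 0.188), and 1 gene passed without CD4 untreated 15. RUX against untreated called 0 (0% of all genes, 0 and 0). RUX+CSA against CSA called 0 (0.281% of all genes, 3 at an unadjusted p under 0.05, DESeq2 1, Pdk1), and RUX+CSA against RUX 0 (0.782% of all genes, 1 and 0). Of all 13175 genes, 2130 had an unadjusted p under 0.05 for CSA and 548 for RUX against untreated. For RUX+CSA the count was 1315 against CSA and 1881 against RUX. Hk2 stood at 23.1, 21.3 and 20.1 CPM in CSA pools, above all untreated pools at 15.0, 11.0 and 18.6 CPM and all RUX+CSA pools at 13.0, 14.3 and 12.9 CPM, with a log2 of 0.53 (adjusted p = 0.317 by edgeR) and -0.69 for RUX+CSA against CSA (0.361).

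Averaged over RUX, CSA called 0 of 32 genes in CD4 cells by edgeR, against 7.16% of all genes, with 2 at an unadjusted p under 0.05 and 1 by DESeq2, Pfkfb4, which edgeR put at 0.80 (SE 0.26, adjusted p = 0.0811). Without CD4 untreated 15 3 genes passed, and without CD4 CSA 17 1 did. Averaged over CSA, RUX called 0 by edgeR, against 0.25%, with 2 at an unadjusted p under 0.05 and 1 by DESeq2, Pdk1 at -0.43 (SE 0.11, adjusted p = 0.161 by edgeR). The interaction called 0 (0% of all genes, 0 and 0). Of all 13175 genes, 2981 had an unadjusted p under 0.05 for the averaged CSA effect, 1294 for that of RUX and 629 for the interaction.

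**Figure D5:**
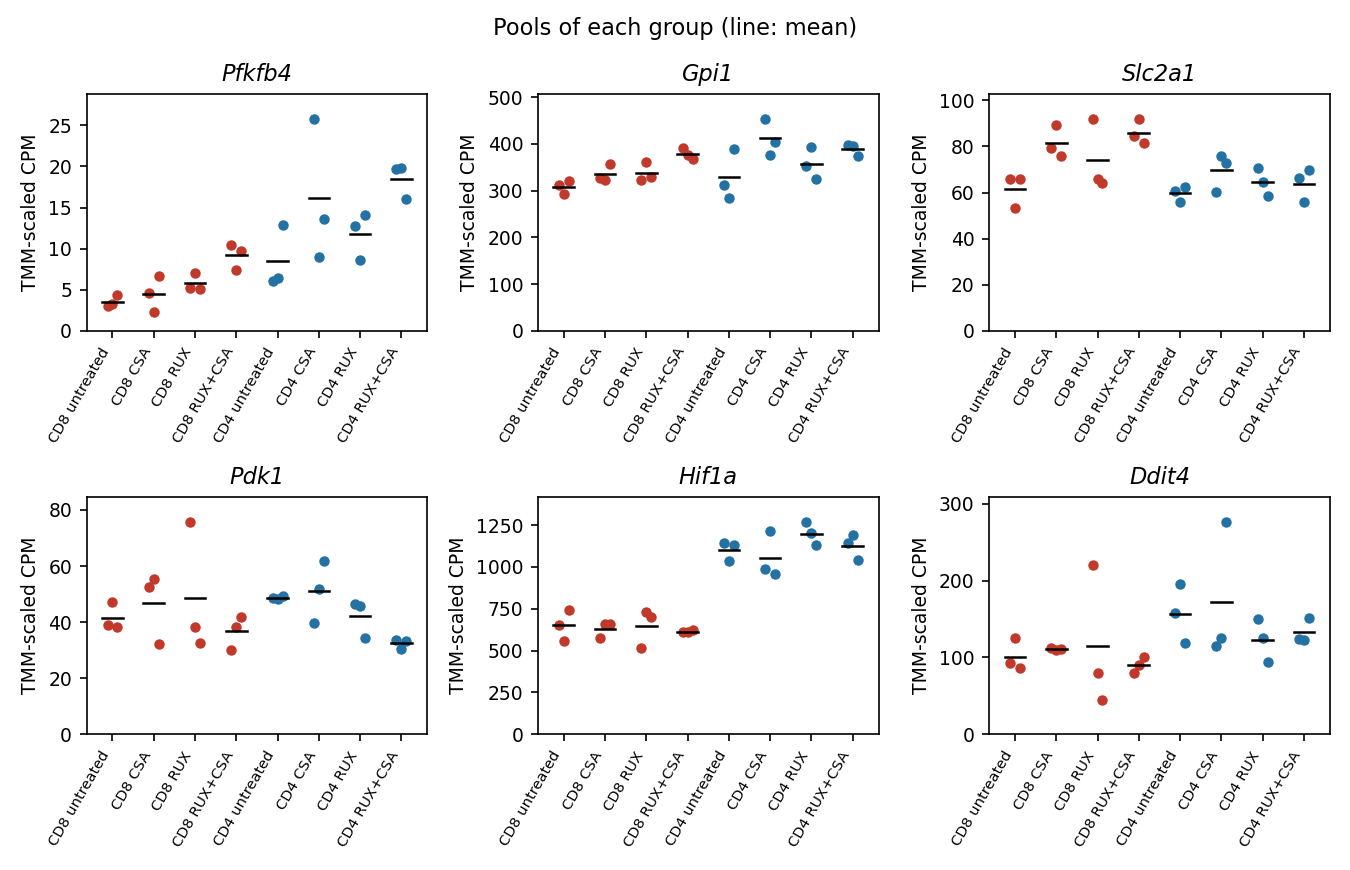
TMM-scaled CPM of Pfkfb4, Gpi1, Slc2a1, Pdk1, Hif1a and Ddit4 in the 3 pools of each of the 8 groups. Pfkfb4, Gpi1 and Slc2a1 lie higher in CD8 RUX+CSA than in CD8 untreated pools, Pdk1 is low in CD4 RUX+CSA pools, Hif1a separates the cell types, and Ddit4 is high in CD8 RUX 7.

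The difference between the cell types in the RUX+CSA effect was tested directly. EdgeR called 0 of the 32 genes, against 0.0223% of all genes, and DESeq2 called 0. An unadjusted p under 0.05 was held by 1906 of all 13476 genes and by 2 of the 32. These 2 were P4ha1, whose effect was higher in CD8 by a log2 of 0.60 (SE 0.27, adjusted p = 0.314), and Pfkm, lower by -0.64 (SE 0.30, adjusted p = 0.334). The effects on the genes called in CD8 cells alone are thus not shown to differ from those in CD4 cells.

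Other genes of these pathways were taken from lists. In CD8 cells under RUX+CSA, 2 of 20 further glycolysis genes tested rose and 2 fell, beside 7.94% higher and 7.73% lower over all genes. The same shares are the background of the lists that follow. Adpgk, the ADP-dependent glucokinase, rose by a log2 of 1.36 (SE 0.16, adjusted p = 0.00207 by edgeR). Of 10 pentose phosphate genes 2 rose and 1 fell, with G6pdx, which opens that pathway, at 0.79 (SE 0.11, adjusted p = 0.00353). Of 14 oxygen-sensing genes 1 rose and 3 fell, with Siah2, a ubiquitin ligase, at 0.65 (adjusted p = 0.00522) and Hif1an, which hydroxylates HIF on asparagine, at -0.44 (0.0116). Of 25 further hypoxia genes 1 rose and 2 fell, and of 12 genes of pyruvate entry 1 fell, Pdk2, a paralog of Pdk1, at -1.35 (0.0337).

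In CD4 cells under CSA, Epas1, which encodes HIF-2alpha, was the 1 of 15 oxygen-sensing genes that rose, and 0 fell, against 1.48% of all genes called in either direction. It rose by a log2 of 1.24 (SE 0.17, adjusted p = 0.00234 by edgeR), and was lower in RUX+CSA than in CSA pools by -0.98 (SE 0.17, adjusted p = 0.0208), while Hif1a stood at 986, 1217 and 960 CPM in these CSA pools against 1140, 1033 and 1133 CPM untreated. Of 20 further glycolysis genes 2 fell, among them Ldhb, the heart-type partner of Ldha, at -1.06 (0.0289). Beside these calls, 2 of 6 NK cell and 1 of 4 basophil and mast cell markers were higher in CSA than in untreated CD4 pools. The NK cell sum was 169 to 240 CPM untreated and 526 to 743 CPM with CSA, and the erythroid sum 52.4 to 127 and 286 to 427 CPM, both without overlap. Their part in these calls was not tested.

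Between the cell types, 4 of 20 further glycolysis genes were higher and 9 lower in CD8, and 5 of 29 further hypoxia genes were higher and 17 lower, beside 27.4% higher and 26.4% lower over all genes. Gpd2, the mitochondrial glycerol phosphate dehydrogenase, was higher by a log2 of 1.78 (adjusted p = 1.89e-11 by edgeR), and Bhlhe40, a hypoxia-induced repressor, lower at -1.10 (2.8e-11). Of 10 pentose phosphate genes 5 were higher and 0 lower, of 15 oxygen-sensing genes 5 and 4, and of 12 genes of pyruvate entry 4 and 3. Called in either direction in these last 3 lists were thus 5 of 10, 9 of 15 and 7 of 12, near the 53.8% of all genes. Among the further glycolysis and further hypoxia genes, lower calls (9 of 20 and 17 of 29) took a larger share than over all genes. Higher calls there took a smaller share, and neither difference was tested.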

How the data were processed

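The authors deposited 1 table of raw counts of read pairs per gene. Per the file headers, featureCounts 2.0.3 counted read pairs over exons of the mm10 genes, with no strand option and no option to count multi-mapping reads; per the submitters' processing notes, reads were aligned with STAR (version not given in the sources used here). Per the labels' protocols, libraries were made with a SMART-Seq mRNA kit from sorted cells. Groups came from the labels. Levels are TMM-scaled CPM, or CPM per kb of the exon length in the table, and marker sums are CPM of library totals without TMM.

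Genes were tested with edgeR 4.0.16 in R 4.3.3 (filterByExpr, TMM, robust quasi-likelihood F test, two-sided), in 1 fit over the 12 CD8, 1 over the 12 CD4 and 1 over all 24 libraries, with Benjamini-Hochberg adjustment over all genes of the fit and a threshold of 0.05. The fits tested 12684, 13175 and 13476 genes. Isozyme shares used a permutation test in SciPy 1.17.1. Fits were tested on simulated counts. Alternatives were DESeq2 1.42.0, no TMM, no low-count filter, each library left out, CD8 CSA 6 and CD8 RUX 7 left out, and the markers of other cells as a covariate. The intervals of 2 SE cover the spread between pools. No 2 libraries held identical values (0 identical pairs).

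All 32 genes are named. Full statistics are given for those past the threshold, or the 10 with the smallest p where over 10 passed, and up to 3 genes per further list were named by smallest p. The members and lists were chosen with earlier results of these data known.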

Additional observations from a re-analysis of the deposited data

How the results depend on the processing

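Counts of the 32 genes past the threshold moved by more than 1.5 times as follows, and where no cause is named it was not tested. For CD8 RUX+CSA against untreated the count of 3 became 8 with DESeq2, 1 without TMM, 9 without CD8 CSA 6 and CD8 RUX 7 and 0 with the covariate for markers of other cells, and 0 to 3 with single libraries left out. Over all genes, 1988 of 12684 became 2794 of 17840 with DESeq2, 2182 of 12684 without TMM and 3893 of 12799 without the pair. The count over all genes was 0 with the covariate and 426 to 1807 with single libraries left out. Without that pair of libraries, 3 genes passed for CD8 CSA against untreated, 2 for CD8 RUX+CSA against RUX, 5 for the averaged CSA effect and 1 for the averaged RUX effect in CD8, in place of 0 each. Of all 12799 genes, 616, 1481, 2802 and 245 passed there, in place of 0, 0, 299 and 71 of 12684. DESeq2 gave 4 for the averaged CSA effect and 1 for the averaged RUX effect in CD8, and in CD4 2 for RUX+CSA against untreated, 1 for RUX+CSA against CSA, 1 for the averaged CSA and 1 for the averaged RUX effect, in place of 0 each. Over all genes DESeq2 called 1285 and 544 of 17840 in these CD8 comparisons. In these CD4 comparisons it called 947, 231, 1723 and 223 of 19616. DESeq2 gave 10 in place of 6 between the cell types in RUX pools, beside 2883 of all 20217 genes in place of 2409 of 13476. Without the low-count filter 1 gene passed for CD4 RUX+CSA against untreated and 1 against CSA, beside 320 and 77 of all 19642 genes.

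With single libraries left out, the counts ranged from 0 to 3 for the averaged CSA effect in CD8, 0 to 1 for the averaged RUX effect in CD8, 0 to 2 for CD4 RUX+CSA against untreated, 0 to 1 for CD4 CSA against untreated and 0 to 3 for the averaged CSA effect in CD4. Between the cell types they ranged from 5 to 8 in CSA pools, 7 to 10 in RUX+CSA pools and 15 to 19 over the 4 treatments. Pdk1 in CD8 RUX+CSA against untreated turned to 0.13 with the covariate, and Pfkfb4 in CD4 RUX+CSA against CSA ranged from -0.084 without CD4 CSA replicate 17 to 0.72 without CD4 CSA replicate 16. Neither was past the threshold under any of these settings.

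No paired analysis was possible because the labels give each library a pool number of its own and do not say which CD8 and CD4 libraries, if any, came from the same mice. With 3 pools a group and read pairs as counted, Vegfa, Egln3, Aldoc and Eno1 rest on few read pairs.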
